A study of Mus musculus with 3 samples.

Results

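Interferon stimulated genes are the genes that cells switch on after interferon binds its receptor, and 49 of them were followed here in RAW 264.7 cells, a macrophage line from a mouse ascites tumour induced by Abelson leukemia virus. The members were taken by gene symbol from a deposited table of 46078 genes, and each of the 49 had a single row. There were 3 libraries, 1 for each condition. One culture is labelled control, the HU culture received 0.5 mM hydroxyurea, and the third received 0.5 mM hydroxyurea together with gold nanocages. RNA was taken after 12 hours, and the amount of nanocages is not given in the sources used here. All 3 cultures are of the same virus-transformed line. No condition was repeated, so no difference below has a replicate check, and a difference between conditions cannot be told apart from one between 2 cultures or 2 libraries.

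Type I interferons act through a receptor pair and the kinases JAK1 and TYK2, which switch on a complex that includes STAT2 and IRF9. This complex binds a DNA element called the interferon stimulated response element and raises the transcription of antiviral genes, among them IRF7, which amplifies the response. Interferon gamma uses its own receptor and acts through a DNA element called the gamma activated site. Macrophages are known to keep a low tonic level of this programme. Hydroxyurea blocks ribonucleotide reductase, which starves replication forks of nucleotides.

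The control library held 14990564 counted reads, the HU library 20057329 and the library with nanocages 18644333, so control was the shallowest. Levels are given as reads and as FPKM (reads per kilobase of exon, scaled to the summed reads of the library). Of 8 macrophage markers, 6 had a mean of at least 1 FPKM, with a summed level of 2882, 2761 and 2632 FPKM in the 3 libraries, while Mrc1 had no reads and Fcgr3 at most 7. No lymphocyte (8) or fibroblast (5) marker reached that mean. Of 7 markers of plasmacytoid dendritic cells, known as strong interferon producers, only Bst2 and Tcf4 did, and the defining marker Siglech had at most 2 reads.

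The response element is shown first, because it was more frequent among the members than among all genes, although most windows lacked it. Members were chosen as genes raised by interferon, which acts through this element, so the higher share is not independent of that choice. Sequences are from RefSeq on GRCm38.p6, the assembly also known as mm10, and cover the 250 bases before the annotated start, written 5′ to 3′ on the strand of the gene. The core searched was GAAA, then NN, then GAAA, on both strands, with N for any base. Of 38 members with a window in that table, 16 held the core (42.1%), beside 3.46% of 27025 genes. Near copies such as Ifit3 and Ifit3b, which both held the core, are counted separately. Of the 8 members with a window that were at least 1.5-fold lower in HU, 4 held it, and of 18 other measured members with a window 5 did. The core of the gamma activated site, TTC, then NNN, then GAA, stood in 7 of the 38 (18.4%) beside 8.13% of all genes. A match describes letters in the window and not a bound site.

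Windows are printed for 4 members with the core that had a lower level in HU, which are Stat2, Igtp, Isg15 and Oas1g. Of these, Oas1g was under 1.5-fold lower, and for Isg15, on few reads, the counting interval included no difference. Windows are also printed for Bst2, which has the core and was close to control in both other libraries, and for Ifih1, which was lower without an exact match. Capitals mark the cores, and where cores overlap the capitals run together. The windows are Stat2 at chr10:128270248-128270497 (plus strand), Igtp at chr11:58199306-58199555 (plus), Isg15 at chr4:156200819-156201068 (minus), Oas1g at chr5:120887614-120887863 (minus), Bst2 at chr8:71537473-71537722 (minus) and Ifih1 at chr2:62646256-62646505 (minus).
Stat2: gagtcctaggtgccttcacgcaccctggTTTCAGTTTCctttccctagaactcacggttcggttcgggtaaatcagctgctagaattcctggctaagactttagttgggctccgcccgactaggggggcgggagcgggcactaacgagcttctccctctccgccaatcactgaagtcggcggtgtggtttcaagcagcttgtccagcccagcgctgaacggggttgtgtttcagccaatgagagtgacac
Igtp: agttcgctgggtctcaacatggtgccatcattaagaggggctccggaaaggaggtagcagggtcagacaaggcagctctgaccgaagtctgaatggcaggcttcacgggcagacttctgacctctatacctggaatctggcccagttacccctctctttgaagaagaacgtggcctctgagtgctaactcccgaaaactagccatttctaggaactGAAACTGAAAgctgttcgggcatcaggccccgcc
Isg15: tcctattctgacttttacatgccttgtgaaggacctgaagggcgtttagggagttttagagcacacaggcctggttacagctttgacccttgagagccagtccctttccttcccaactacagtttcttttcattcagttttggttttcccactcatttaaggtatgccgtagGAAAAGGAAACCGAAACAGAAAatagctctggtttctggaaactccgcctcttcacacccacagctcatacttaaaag
Oas1g: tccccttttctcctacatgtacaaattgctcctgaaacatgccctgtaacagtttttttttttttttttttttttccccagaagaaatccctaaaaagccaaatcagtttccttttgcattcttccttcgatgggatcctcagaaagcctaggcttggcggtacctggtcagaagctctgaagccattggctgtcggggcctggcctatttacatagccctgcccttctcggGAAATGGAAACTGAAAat
Bst2: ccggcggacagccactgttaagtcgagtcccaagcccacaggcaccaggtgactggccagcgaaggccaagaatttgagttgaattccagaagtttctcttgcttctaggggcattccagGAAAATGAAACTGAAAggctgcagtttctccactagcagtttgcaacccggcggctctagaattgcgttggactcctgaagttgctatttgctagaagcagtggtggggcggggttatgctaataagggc
Ifih1: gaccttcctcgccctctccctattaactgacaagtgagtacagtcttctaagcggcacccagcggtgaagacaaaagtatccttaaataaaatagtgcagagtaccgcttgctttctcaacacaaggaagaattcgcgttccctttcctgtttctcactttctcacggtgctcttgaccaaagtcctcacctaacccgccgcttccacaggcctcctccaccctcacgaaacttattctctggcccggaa

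The first core began 222 bases before the start in Stat2, 34 in Igtp, 78 in Isg15, 18 in Oas1g and 130 in Bst2. Isg15 held 3 overlapping cores, and Oas1g and Bst2 held 2 each.

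The programme was present at a basal and uneven level in these cells. Of the 49 members, 34 had a mean of at least 1 FPKM over the 3 libraries and are called measured, and 15 lay below it. The highest were Bst2, which encodes the virus tether tetherin, at 78.58, 76.55 and 74.63 FPKM for control, for HU and for HU with nanocages, and Ifi27, a mitochondrial interferon-induced protein, at 71.39, 68.72 and 62.19 FPKM. This order of libraries is kept throughout. At the other end, Isg15 had 21, 16 and 14 reads and Ifit1 had 1, 6 and 9 reads. In the plot of levels the members span from 1.13 to 76.6 mean FPKM.

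**Figure D1:**
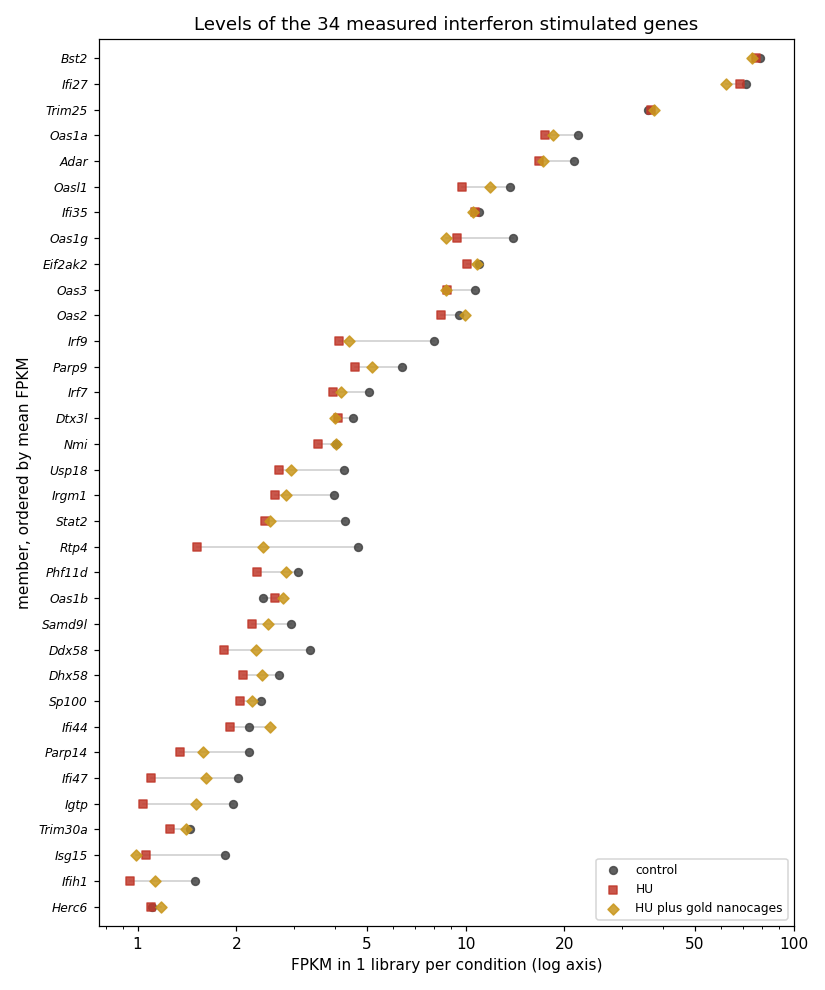
FPKM on a log axis of the 34 measured members for control (circles), for HU (squares) and for HU plus gold nanocages (diamonds), 1 library each, ordered by mean FPKM, with a grey line joining the lowest and highest library. Bst2, Ifi27 and Trim25 lie close together in all 3 libraries, while Rtp4, Irf9 and Ddx58 are spread, with control highest.

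The first comparison set HU against control, and so concerns the effect of hydroxyurea alone. The measured members were lower in HU as a list, by moderate amounts, and most clearly in Rtp4, the factors Irf9 and Stat2 and the RNA sensor Ddx58. The list was chosen with earlier results of these data known. Of 45 measured interferon stimulated genes outside it, 3 were at least 1.5-fold lower and 3 higher (6.67% each, beside 3.12% and 4.53% of all genes). Their median log2 ratio was -0.12. Ratios are of CPM (counts scaled to the summed count of the library), with exact 95% intervals (Clopper-Pearson) from the 2 read counts, which cover counting error only. Of 34 measured members, 11 were at least 1.5-fold lower (32.4%), beside 3.12% of all 10849 genes with that mean FPKM, and none were at least 1.5-fold higher, beside 4.53%. The interval lay below 1 for 21 members (61.8%, beside 20.1% of all genes) and above 1 for none (beside 18.7%). In all, 32 of 34 had a ratio below 1 (94.1%, beside 51.9% of all genes at 1 or less), the exceptions being Oas1b and Trim25. The median log2 ratio was -0.36, beside -0.01 for all genes. The level of a gene moved with these counts, and its part in them was not tested. Of the members, 25 had a mean of 1 to 10 FPKM, as did 5216 of the 10849 genes. Among these 25 the median was -0.41 beside -0.02 for all genes in that range, and all 11 lay there, beside 4.81% of those genes. The 9 members at 10 FPKM or more had a median of -0.12 and none 1.5-fold lower, beside -0.0036 and 1.54% for the 5633 genes in that range (this division was chosen after the values were seen). With a mean of at least 5 FPKM, only Irf9 of 13 members was 1.5-fold lower, and the share of all genes at that filter is not given here.

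**Figure D2:**
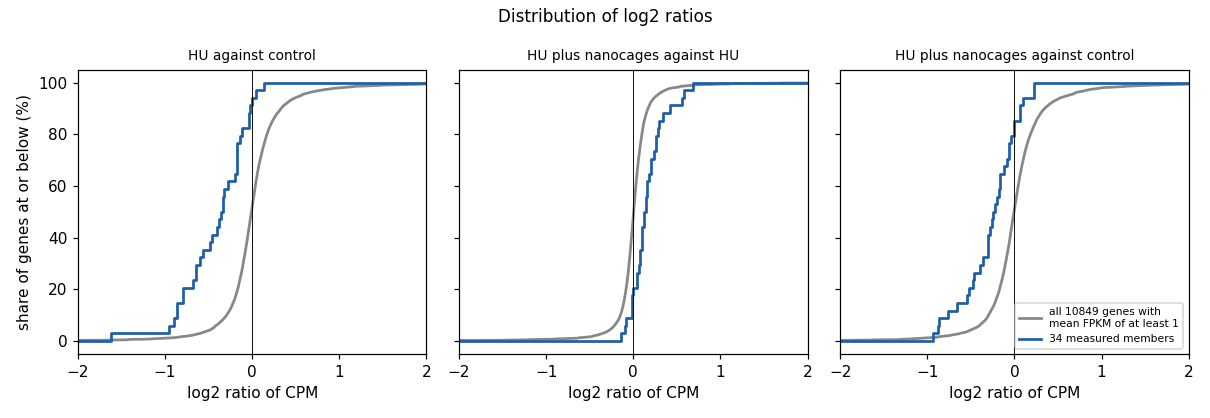
Share of genes (in percent) at or below each log2 ratio of CPM, for all 10849 genes with a mean of at least 1 FPKM (grey) and for the 34 measured members (blue), in the 3 comparisons. The members lie left of all genes in HU against control (median -0.36), right of them in HU plus nanocages against HU (0.12), and left again in HU plus nanocages against control (-0.25).

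All 3 transcription factors among the members had an interval below 1 in HU (beside 20.1% of all genes). Of these, 2 were at least 1.5-fold lower (beside 3.12%). Irf9, which gives the complex its DNA contact, had 647, 445 and 442 reads (8.01, 4.12 and 4.40 FPKM). It was 1.95-fold lower in HU (1.72 to 2.20) and 1.82-fold lower with nanocages (1.61 to 2.06), each against control, so the HU libraries were alike and only control stood high. Stat2, its partner, had 282, 216 and 207 reads (4.28, 2.45 and 2.53 FPKM), 1.75-fold lower in HU (1.46 to 2.10). Irf7, the amplifier, had 229, 238 and 235 reads (5.06, 3.93 and 4.17 FPKM), 1.29-fold lower (1.07 to 1.55). Irf9 lies on chromosome 14 at 55603571 to 55610030 and Stat2 on chromosome 10 at 128270559 to 128292849 (mm10, GENCODE M21). Irf9 shares 123 exonic bases with Rnf31 on the same strand, which had 548, 510 and 478 reads and was 1.44-fold lower in HU (1.27 to 1.63). Irf7 shares 45 with Phrf1 on the other strand, at 1992, 3070 and 2739 reads. How reads in shared bases were counted is not given in the sources used here.

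Sensors of viral nucleic acid differed among themselves. Ddx58, which encodes the RNA sensor RIG-I, had 354, 259 and 302 reads (3.35, 1.83 and 2.30 FPKM), 1.83-fold lower in HU (1.55 to 2.16). Ifih1, which encodes the RNA sensor MDA5, had 184, 156 and 172 reads, 1.58-fold lower (1.27 to 1.97). For both genes control was highest and HU lowest. The third RIG-I-like gene, Dhx58, which encodes LGP2, had 132, 138 and 146 reads and was 1.28-fold lower, with an interval that only just excludes 1 (0.611 to 0.9996 as a ratio). Adar, the RNA-editing enzyme that keeps own RNA from being sensed, had 2600, 2731 and 2597 reads (21.37, 16.77 and 17.16 FPKM), 1.27-fold lower (1.21 to 1.34). Adar shares 1365 exonic bases with Chrnb2 on the other strand, at 178, 302 and 304 reads. Eif2ak2, the kinase PKR that stops translation on double-stranded RNA, had 841, 1032 and 1032 reads, at 0.917 of control (0.836 to 1.01). Trim25, the ubiquitin ligase that acts on RIG-I, had 3103, 4249 and 4014 reads (35.97, 36.82 and 37.42 FPKM), at 1.02 (0.977 to 1.07), so the intervals of these 2 genes included 1. Zbp1, a sensor of Z-form nucleic acid, had 2, 8 and 6 reads.

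Of 6 measured members of the oligoadenylate synthetase family, whose active enzymes make the signal for RNase L, 5 had an interval below 1 in HU (83.3%, beside 20.1% of all genes). None was 1.5-fold lower (beside 3.12%). Oas1g had 489, 442 and 381 reads (13.94, 9.42 and 8.73 FPKM), 1.48-fold lower in HU (1.30 to 1.69). Oasl1, known as a brake on Irf7 translation, had 535, 511 and 575 reads (13.68, 9.77 and 11.83 FPKM), 1.40-fold lower (1.24 to 1.58). Oas1a had 621, 661 and 648 reads, 1.26-fold lower (1.12 to 1.40). For Oas1g, Oasl1 and Oas1a control was the highest library. Oas3 had 1127, 1241 and 1152 reads, 1.22-fold lower (1.12 to 1.32). Oas2 had 638, 748 and 824 reads, 1.14-fold lower (1.03 to 1.27). Oas1b, annotated as a polymorphic pseudogene, had 72, 105 and 103 reads, at 1.09 of control (0.800 to 1.49). Oas2, Oas3, Oas1b, Oas1g and Oas1a lie together on chromosome 5 between 120730333 and 120907521, so neighbours in 1 cluster spanned ratios of 0.676 to 1.09. Oas1a, Oas1b and Oas1g are close relatives, and how reads common to them were counted is not given in the sources used here. Oasl2, in a separate cluster with Oasl1, had 8, 2 and 4 reads, and its ratio was 5.35-fold lower in HU with a very wide interval (1.07 to 51.7).

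Immunity-related GTPases, which attack the vacuoles of intracellular microbes and are classical targets of interferon gamma, were lower in HU for all 3 measured members. All 3 had an interval below 1 (beside 20.1% of all genes) and were at least 1.5-fold lower (beside 3.12%). Igtp had 59, 42 and 57 reads (1.95, 1.04 and 1.51 FPKM), 1.88-fold lower (1.24 to 2.86). Ifi47 had 70, 51 and 70 reads (2.02, 1.10 and 1.62 FPKM), 1.84-fold lower (1.26 to 2.69). Irgm1, which regulates the other GTPases of the family, had 347, 306 and 308 reads (3.98, 2.63 and 2.84 FPKM), 1.52-fold lower (1.30 to 1.78). In all 3 the HU library was the lowest. These genes lie on chromosome 11, Irgm1 at 48861968 to 48871683, Ifi47 at 49076587 to 49096974 and Igtp at 58199556 to 58207591. Igtp shares 162 exonic bases on the same strand with Irgm2, a relative that is no member and had 59, 37 and 52 reads. The guanylate binding protein genes of the list were near absence, with Gbp2 at 1, 4 and 1 reads, Gbp3 at 5, 11 and 5, and Gbp7 at 5, 11 and 10.

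Genes of the ISG15 system, a ubiquitin-like tag, were split. Usp18, which removes ISG15 and restrains the interferon receptor, had 113, 96 and 97 reads (4.26, 2.70 and 2.94 FPKM), 1.57-fold lower in HU (1.19 to 2.09). Isg15 itself was 1.76-fold lower, but on 21 and 16 reads its interval included 1 (0.873 to 3.60). Herc6, the ligase that attaches ISG15 in mice, had 88, 117 and 116 reads, at 0.994 of control (0.747 to 1.33). Among ADP-ribosyltransferase genes, Parp14 had 305, 252 and 274 reads (2.19, 1.35 and 1.58 FPKM), 1.62-fold lower (1.37 to 1.92). Parp9 had 467, 449 and 470 reads, 1.39-fold lower (1.22 to 1.59). Its partner Dtx3l, a ubiquitin ligase whose gene starts beside that of Parp9 on the other strand and shares 458 exonic bases with it, had 388, 468 and 428 reads, 1.11-fold lower with an interval that included 1 (0.967 to 1.27).

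Rtp4, an interferon-induced gene also known as a receptor transporter, was furthest from control of all measured members. It had 111, 48 and 71 reads (4.71, 1.52 and 2.42 FPKM), 3.09-fold lower in HU (2.19 to 4.44), with the nanocage library between the other two. It lies on chromosome 16 at 23520291 to 23614222. Of its 1573 exonic bases, 296 are shared on the same strand with Gm45338, a processed transcript for which no counts are given. Ifi44 had 201, 235 and 289 reads, at 0.874 of control (0.721 to 1.06), and Ifi27 had 1570, 2022 and 1701 reads, at 0.963 (0.901 to 1.03). For both of these genes the interval included 1.

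Of the remaining members, those with reads enough to judge were mostly near control. Samd9l, an antiviral factor that also restrains growth, had 239, 244 and 252 reads, 1.31-fold lower in HU (1.09 to 1.57), and Phf11d had 208, 209 and 238 reads, 1.33-fold lower (1.09 to 1.62). Bst2 had 900, 1173 and 1063 reads, at 0.974 (0.892 to 1.06). Intervals included 1 for the nuclear body gene Sp100 (268, 310 and 315 reads), for Nmi (121, 142 and 150) and its partner Ifi35 (285, 370 and 338), and for Trim30a (96, 112 and 116).

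Members below a mean of 1 FPKM were mostly too sparse to compare. Of these 15, 11 had a higher CPM in HU than in control and 4 a lower one, and the interval excluded 1 only for Oasl2. Shares of all genes below that mean are not given here, so these counts describe the members only. Xaf1, which encodes a partner of the caspase inhibitor XIAP, had 65, 84 and 89 reads, and Ifit2, of the family that binds foreign RNA ends, had 50, 74 and 71. Other Ifit genes were sparser, with Ifit3 at 5, 3 and 3 reads and its near-identical copy Ifit3b at 0, 2 and 0. Isg20, an RNA exonuclease, had 8, 22 and 18 reads, 2.06-fold higher in HU with an interval that included 1 (0.881 to 5.34). Mx1 had 1, 4 and 2 reads and Mx2, annotated as a polymorphic pseudogene, had 16, 23 and 16. Rsad2, which encodes viperin, had 5, 10 and 7 reads, and its neighbour Cmpk2, a nucleotide kinase, had 10, 12 and 12. For the other 14 a difference between HU and control was not detectable at this depth, where 3 reads stand for 0.200, 0.150 and 0.161 CPM.

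**Figure D3:**
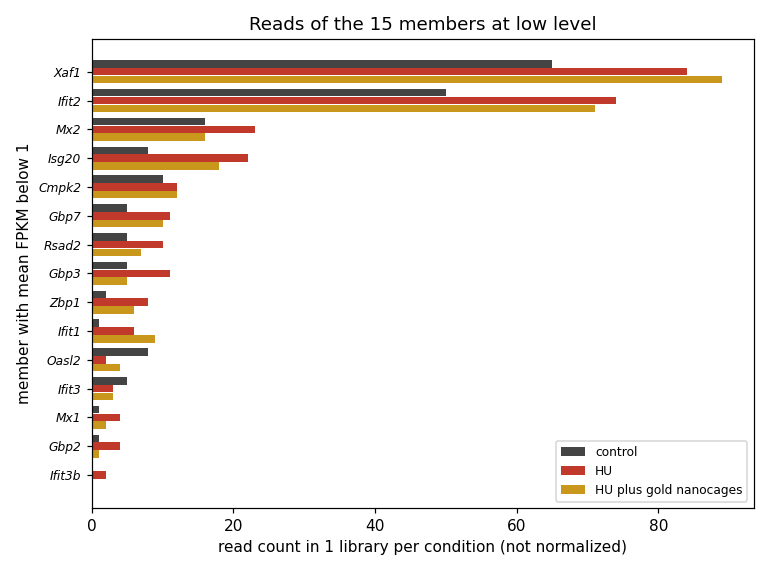
Read counts, not normalized, of the 15 members with a mean below 1 FPKM for control (grey), for HU (red) and for HU plus gold nanocages (yellow), 1 library each. Only Xaf1 and Ifit2 pass 30 reads in any library, and the control library was the shallowest.

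The second comparison, of both agents with HU, concerns what nanocages add to hydroxyurea. The members were slightly higher with nanocages, and most stayed within counting error of HU. Of 34 measured members, 1 was at least 1.5-fold higher (2.94%, beside 1.36% of all genes), which was Rtp4, and none was 1.5-fold lower (beside 1.32%). The interval lay above 1 for 7 members (20.6%, beside 8.35%) and below 1 for 1, Ifi27 (2.94%, beside 7.78%). A ratio above 1 was found in 27 of 34, while 20.6% of members lay at 1 or less, beside 48.2% of all genes. The median log2 ratio was 0.12, beside 0.00 for all genes. The median was 0.03 over the 13 members with a mean of at least 5 FPKM.

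The 7 members were Rtp4 at 1.59-fold (1.09 to 2.35), Ifi47 at 1.48-fold (1.01 to 2.16), Ifi44 at 1.32-fold (1.11 to 1.58), Ddx58 at 1.25-fold (1.06 to 1.49), Phf11d at 1.23-fold (1.01 to 1.48), Oasl1 at 1.21-fold (1.07 to 1.37) and Oas2 at 1.19-fold (1.07 to 1.31). Of these, Ifi44 and Oas2 were highest of the 3 libraries with nanocages, and the other 5 lay between HU and control. Igtp, at 1.46-fold, had an interval that included 1 (0.963 to 2.23). The factors were close to HU, with Irf9 at 1.07-fold (0.935 to 1.22), Stat2 at 1.03-fold (0.848 to 1.25) and Irf7 at 1.06-fold (0.883 to 1.28). Ifi27 was 1.10-fold lower (1.04 to 1.18). Oas1g, at 0.927 of HU (0.806 to 1.07), was furthest down after Ifi27.

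**Figure D4:**
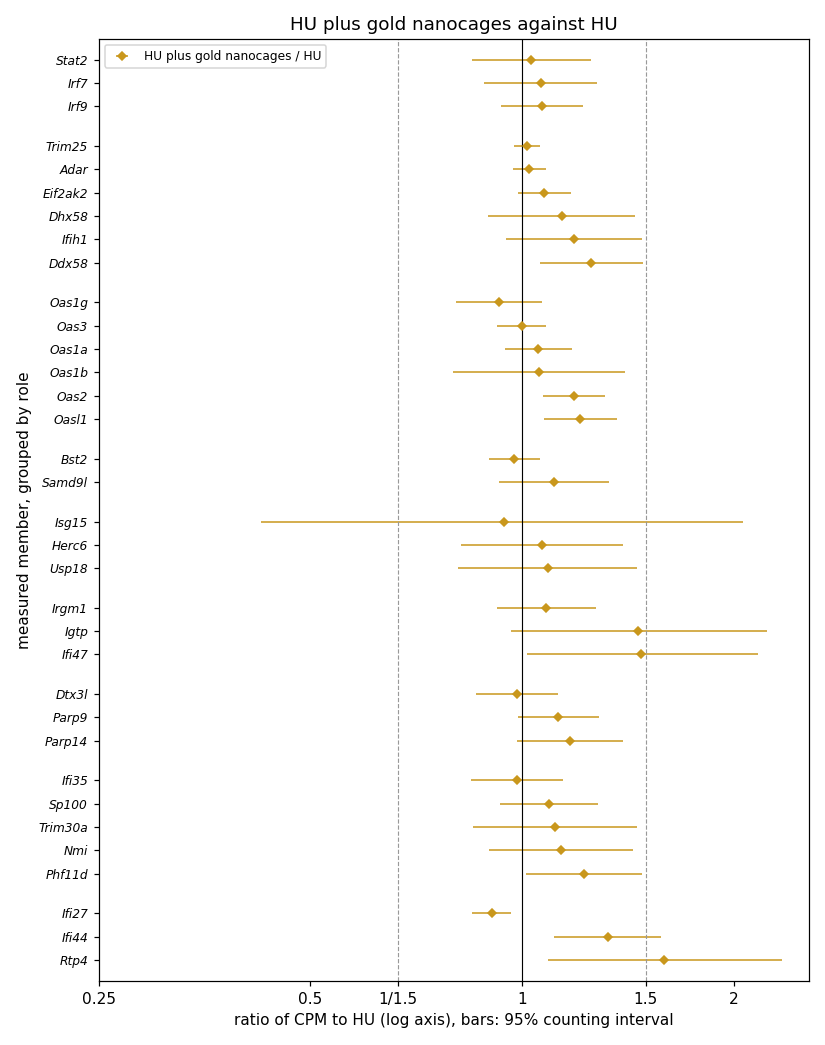
Ratio of CPM in HU plus gold nanocages to HU on a log axis for the 34 measured members, grouped by role, with 95% counting intervals and dashed lines at 1.5-fold either way. Rtp4 lies past 1.5-fold, and Ifi27 has the only interval wholly below 1.

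The third comparison set the culture given both agents against control. The measured members were again lower than control as a list, with a median nearer to 0 than in HU. Of 34 measured members, 5 were at least 1.5-fold lower (14.7%, beside 3.24% of all genes) and none 1.5-fold higher (beside 5.28%). They were Rtp4 at 1.94-fold (1.43 to 2.66), Isg15 at 1.87-fold (0.905 to 3.97), Irf9 at 1.82-fold, Stat2 at 1.69-fold (1.41 to 2.04) and Oas1g at 1.60-fold (1.39 to 1.83). The interval lay below 1 for 16 members (47.1%, beside 20.1%) and above 1 for none (beside 19.6%), with a median log2 ratio of -0.25 beside 0.00 for all genes. No 2-fold difference was found here. With a mean of at least 5 FPKM, 2 of 13 members were 1.5-fold lower, again with no share of all genes beside it.

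Both comparisons with control share the control library, and both comparisons with HU share the HU library, so they are not independent. Side by side, Ddx58 was 1.83-fold lower in HU and 1.46-fold lower (1.25 to 1.71) with nanocages, and Igtp was 1.88-fold and 1.29-fold lower (0.879 to 1.89). Parp14 was 1.62-fold and 1.38-fold lower (1.17 to 1.64), Usp18 1.57-fold and 1.45-fold (1.09 to 1.92), and Ifih1 1.58-fold and 1.33-fold (1.07 to 1.65). Of 34 measured members, 22 were highest in control and lowest in HU, 7 were highest in control and lowest with nanocages, 3 were highest with nanocages and lowest in HU, and 2 were highest with nanocages and lowest in control. The HU value enters both sides of this order. The shares of all genes in these orders are not given here, so the counts describe the members only and cannot be called particular to them.

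**Figure D5:**
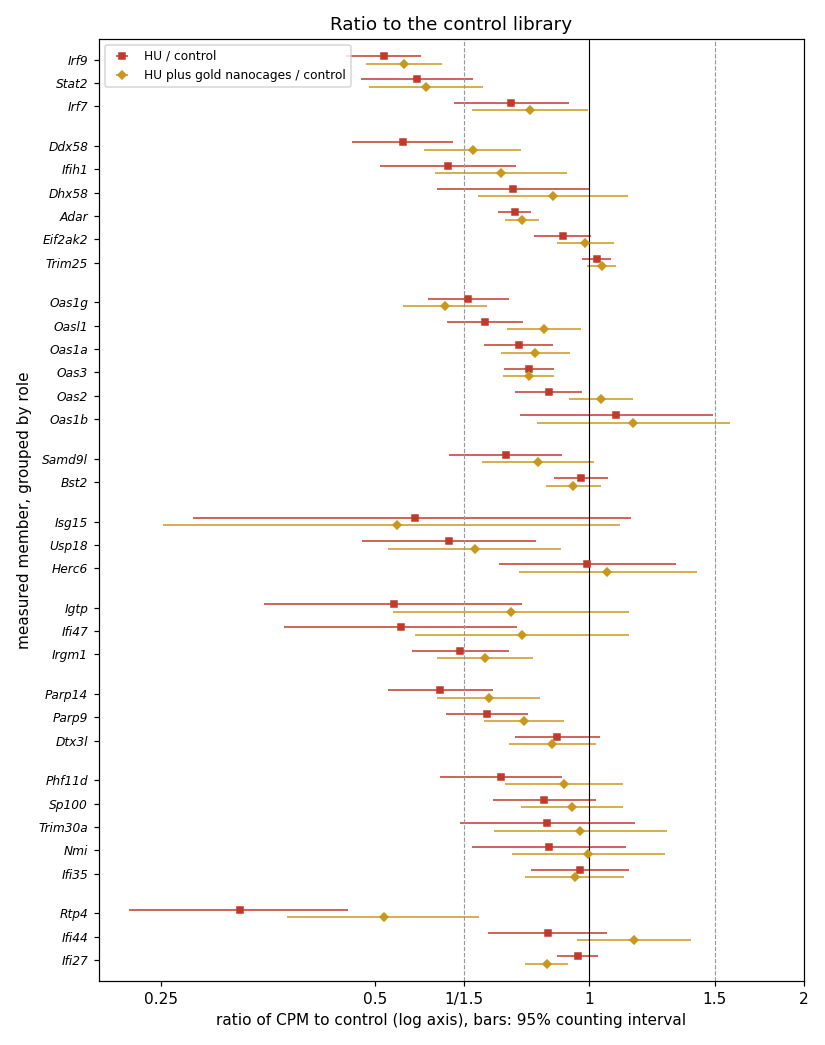
Ratio of CPM to control on a log axis, for HU (squares) and for HU plus gold nanocages (diamonds), for the 34 measured members grouped by role, with 95% counting intervals and dashed lines at 1.5-fold either way. Irf9 and Stat2 lie left of the lower dashed line in both, while Igtp, Ifi47 and Ddx58 do so in HU only.

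The genes around the members show where the pathway was and was not expressed. None of 12 interferon ligand genes, among them Ifnb1, Ifna4 and Ifng, had a read in any library, which allows up to the same 0.200, 0.150 and 0.161 CPM. Of 9 receptor and kinase genes 8 were measured. None of them was 1.5-fold lower in HU than in control (beside 3.12% of all genes) or higher (beside 4.53%), which with so few genes is near the general share. Tyk2, the kinase bound to the receptor subunit IFNAR1, had 2054, 2121 and 2064 reads, 1.30-fold lower in HU (1.22 to 1.38). Jak1 was 1.10-fold lower (1.05 to 1.16), Ifnar1 1.10-fold lower (1.01 to 1.19) and the shared subunit gene Il10rb 1.23-fold higher (1.09 to 1.38). The receptor for interferon lambda, Ifnlr1, had no reads.

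Among 9 measured STAT and IRF genes outside the members, 1 was 1.5-fold lower (11.1%, beside 3.12% of all genes) and 1 higher (11.1%, beside 4.53%) in HU. Irf8, a factor of the macrophage lineage, had 1667, 1232 and 1213 reads (15.76, 8.71 and 9.22 FPKM), 1.81-fold lower (1.68 to 1.95), and like Irf9 was high in control only. Irf1, an early target of interferon gamma, had 115, 235 and 251 reads (1.93, 2.95 and 3.39 FPKM), 1.53-fold higher (1.22 to 1.93), in the other direction from the members. Stat3 was 1.22-fold lower (1.14 to 1.30) and the corepressor gene Irf2bp2 1.23-fold higher (1.10 to 1.37).

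Of 11 measured genes that lead to interferon induction, 4 had an interval below 1 in HU (36.4%, beside 20.1% of all genes) and 2 above 1 (18.2%, beside 18.7%). None was 1.5-fold lower (beside 3.12%) or higher (beside 4.53%), again near the general share for so few genes. Tmem173, which encodes STING, was 1.43-fold lower (1.24 to 1.65), and the adaptor gene Mavs 1.29-fold lower (1.17 to 1.42). Ticam1, the adaptor of TLR3, was 1.27-fold lower (1.15 to 1.42) and Tlr7 1.25-fold lower (1.15 to 1.35). Among 10 measured negative regulators Socs1, the inhibitor of JAK kinases, was 2.09-fold higher in HU (1.14 to 4.06) on 15, 42 and 34 reads. The phosphatase genes Ptpn1 (1.24-fold higher, 1.16 to 1.34) and Ptpn2 (1.17-fold higher, 1.07 to 1.29) were slightly higher, and Pias4 was 1.20-fold lower (1.08 to 1.32).

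A further list of 75 interferon stimulated genes that are no members, of which 45 were measured, had genes on both sides of control. In HU 3 were at least 1.5-fold lower (6.67%, beside 3.12% of all genes) and 3 higher (6.67%, beside 4.53%). Intervals lay below 1 for 15 (33.3%, beside 20.1%) and above 1 for 8 (17.8%, beside 18.7%), and the median log2 ratio was -0.12. Pml, the organiser of nuclear bodies, had 657, 2282 and 2189 reads, 2.60-fold higher (2.38 to 2.84). Rbm43 was 1.69-fold higher (1.44 to 1.98) and Cd274, which encodes PD-L1, 1.56-fold higher (1.28 to 1.89), while Oas1c, on 55, 47 and 31 reads, was 1.57-fold lower (1.04 to 2.36). With nanocages against HU the median of this list was 0.02, with 1 of the 45 at least 1.5-fold higher (2.22%, beside 1.36% of all genes) and none 1.5-fold lower (beside 1.32%). Intervals lay above 1 for 5 (11.1%, beside 8.35%) and below 1 for 1, Trim21 (2.22%, beside 7.78%). The following Slfn genes were singled out with their values known. Slfn8 had 107, 99 and 148 reads, 1.45-fold lower in HU than in control (1.09 to 1.92) and 1.61-fold higher with nanocages than in HU (1.24 to 2.10). Slfn5 had 105, 91 and 120 reads, 1.54-fold lower in HU (1.15 to 2.07) and 1.42-fold higher with nanocages (1.07 to 1.88). Both of these comparisons use the HU library. Cd274 was 1.27-fold higher with nanocages than in HU (1.10 to 1.48).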

How the data were processed

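RNA of 3 cultures, 1 per condition, was sequenced as paired ends. The authors deposited 1 table with raw read counts of every gene and FPKM values, which equal the count scaled by exonic length and by the summed count of the library (within 0.01 FPKM for 100% of genes). The table also holds each gene's exonic length, another deposited value. HISAT2 2.0.1, SAMtools 0.1.18, HTSeq 0.6.1, DESeq, bcl2fastq 2.17.1.14 and cutadapt are named, with the build mm10, per the submitters' processing notes. How they were set, strand included, is not given in the sources used here, so reads of genes overlapping on opposite strands cannot be told apart.

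Ratios are of CPM over the summed count, computed for the whole table with Python 3.11.15 and scipy 1.17.1, and checked on simulated data. The simulated counts held counting error only (Poisson), so the check does not cover spread between cultures. Having 1 library per condition, the data allow neither p-values nor standard errors. A gene is past the fold at 1.5-fold, and below or above counting error where its 95% interval excludes 1. Reads carry no molecular identifiers, so intervals and the limit of 3 reads cover counting error only. Coordinates came from GENCODE M21, promoter windows from RefSeq. Named genes are all members and, from each pathway list, up to 4 measured genes furthest from control in HU. Members and lists were chosen with earlier results of these data known. Alternatives were TMM (edgeR 4.0.16) and median-of-ratios scaling (DESeq2 1.42.0), other FPKM filters, folds and pseudocounts, and leaving out near-identical copies.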

Additional observations from a re-analysis of the deposited data

How the results depend on the processing

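With 1 library per condition no replicate could be left out, and no paired analysis was possible because each condition has a single library. Both other scalings kept the ratios of the 34 measured members and the 20 pathway genes named by rule within their counting intervals (the 15 low members were not rescaled) and moved no count by over 1.5 times, and they moved the median of all genes by less than 0.01 (log2). The median log2 ratio of members stayed between -0.36 and -0.20 in HU against control and between -0.25 and -0.20 in HU plus nanocages against control over 7 settings, and between 0.03 and 0.13 in HU plus nanocages against HU. Counts of members depended on the level asked for. For the other filters, folds and pseudocounts the shares of all genes are not given here, so those counts cannot be set against a general rate. With a mean of at least 5 FPKM, 1 member in place of 11 was 1.5-fold lower in HU and 8 in place of 21 were below counting error. In HU plus nanocages against HU, 0 in place of 1 were then higher, 2 in place of 7 above counting error, and the median was 0.033. Against control, 2 in place of 5 were lower and 8 in place of 16 below counting error. At 2-fold the counts were 1 lower in HU, 0 higher with nanocages against HU and 0 lower with nanocages against control. On the log2(FPKM + 1) scale, at 1.5-fold, the same counts were 4, 0 and 3. Without a filter, 13 members were 1.5-fold lower and 8 higher in HU, and 4 were lower and 3 higher with nanocages against HU. With nanocages against control, 7 were then lower, 5 higher and 1 above counting error. The members higher than control all had a mean below 1 FPKM. The member above counting error is Ifit1, on 9 against 1 reads. Among protein-coding genes alone, 0.251% were 1.5-fold lower and 0.367% higher with nanocages against HU. Depth limits the 15 members below 1 FPKM, of which 10 had fewer than 30 reads in all 3 libraries together.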
